A study of Mus musculus with 14 samples.

Results

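Atf4 and 9 genes that it is known to regulate or that share its pathways were described in 14 cultured clones of mouse skeletal cells. They were taken by gene symbol, as Atf4 itself, the serine synthesis enzymes Phgdh, Psat1 and Psph, the folate enzymes Shmt1, Shmt2, Mthfd2 and Mthfd1l, and the further targets Asns and Chac1. These are 10 of the 30503 genes of the count table, and all 10 were among the 17358 genes with enough reads to be tested. The rule goes by gene symbol and uses no measured value of these clones. However, the 10 genes and the further lists used below were chosen with earlier results of these data known.

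Bulk RNA-seq was performed on clones that each grew from a single tdTomato+ cell of femoral bone marrow. The Fgfr3-WT clones (WT, n = 5) carried Fgfr3-creER; R26R(tdTomato/+) and were isolated at P23. The Fgfr3-p53 cKO clones carried Fgfr3-creER; Trp53fl/fl; R26R(tdTomato/+) and were isolated at P28 (n = 5) or at 4 months of age (P4M, n = 4). All mice received tamoxifen at P21, so every clone, WT included, came from a cell in which the Fgfr3-creER transgene had recombined the reporter. The labels give passage 8 for WT and P28 clones and passages 6 to 8 for P4M clones, whereas the methods give passages 6 to 8 for the cKO clones of both ages together. A clone stands for 1 founder cell kept in culture, and the labels do not tie clones to mice, so p-values measure only the spread between these clones. In the labels the names of all WT libraries begin with 1 number and those of all cKO libraries with another. What the number stands for is not stated in the sources used here, and genotype cannot be told apart from it. The 3 comparisons ask how loss of p53, and the longer time in vivo after it, relate to the level of these genes.

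Atf4 is the transcription factor through which the integrated stress response acts. Kinases that sense amino acid shortage, unfolded protein, double-stranded RNA or lack of haem phosphorylate the initiation factor eIF2alpha, which lowers general translation and favours translation of the Atf4 mRNA, so much of the control of Atf4 is not seen in its RNA. Its targets include the enzymes that make serine from a glycolytic intermediate and those of the mitochondrial folate arm, which turn serine into glycine and formate for purine and thymidylate synthesis. In bone, Atf4 is known for its part in osteoblast differentiation and amino acid import.

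Because Atf4 binds a composite element as a heterodimer with C/EBP proteins, the letters TGATGNAA were searched on both strands in RefSeq promoter windows of GRCm38.p6, from 250 bases before to 50 bases after a gene's start. All 10 genes had a window, and Asns and Chac1 held a match (20% of the 10 genes, against 4.51% of the 27025 genes with a window). Both stretches are shown because they are the only matches among the 10 genes in this search, with the matched letters in capitals. The Asns stretch lies on the minus strand at chr6:7693225-7693278, and its match begins 23 bases before the RefSeq start, inside the first bases of the longer gene model of GENCODE M21. The Chac1 stretch lies on the plus strand at chr2:119351003-119351102, 193 bases before the start at its match, which reads as the reverse complement of the searched letters.
Asns: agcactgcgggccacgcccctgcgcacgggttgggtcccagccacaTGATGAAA
Chac1: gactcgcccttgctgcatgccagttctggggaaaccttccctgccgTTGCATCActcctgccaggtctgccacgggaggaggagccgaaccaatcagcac
A match is a description of letters in a window, and no match says only that these letters are not in it.

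The targeted gene was as labelled. Trp53 lay at 49.9 to 68.2 CPM (read counts scaled to library size by TMM) in the WT clones and at 1.72 to 2.84 CPM in the 9 cKO clones (log2 fold change -4.48 ± 0.154 SE for P28 and -4.71 ± 0.172 SE for P4M against WT, adjusted p = 2.14e-09 and 4.62e-09, edgeR quasi-likelihood test with Benjamini-Hochberg adjustment). Total counts were 25688946 to 38958693 in WT, 37606033 to 48648618 in P28 and 43757832 to 52857424 in P4M libraries, so depth moved with genotype too. Of 7 skeletal lineage markers, 2 were called higher and 3 lower in each comparison with WT at an FDR of 0.05 (edgeR). Of all tested genes, 19.2% were higher and 19.7% lower in P28, and 22.3% and 23.6% in P4M. Only Col1a1 and Col2a1 of the 7 are given here by clone. Col1a1, the main bone collagen, was at 1.45 to 1029 CPM in WT, 14680 to 22012 CPM in P28 and 7377 to 50643 CPM in P4M clones. Its cKO clones lay above all WT clones, and its P28 range lay within that of P4M. Col2a1, the cartilage collagen, was at 228 to 21551, 138 to 1297 and 3.03 to 48.9 CPM, and its WT and P28 ranges overlapped. Of 7 haematopoietic markers with reads, the summed level was 16.5 to 145 CPM in WT, 3.47 to 22.3 CPM in P28 and 5.05 to 9.10 CPM in P4M clones, most of it from Lyz2 and Cd68, with Ptprc, the pan-leukocyte marker, at 0.15 CPM or less in every clone and 1 marker at 0 throughout WT and 1 throughout P4M. The 5 endothelial markers summed to 0.0809 to 0.740, 0.410 to 4.49 and 2.75 to 12.8 CPM, in the cKO clones mostly Kdr, with 2 of them at 0 in all WT clones and 1 at 0 in all P28 and in all P4M clones. Top2a, Mki67 and 2 other proliferation genes summed to 73.5 to 189 CPM in WT, 250 to 764 CPM in P28 and 450 to 793 CPM in P4M clones. The part of lineage, proliferation, depth or time in culture in the results that follow was not tested, and in bulk samples fewer cells of a type and less RNA per cell cannot be told apart.

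Across the 10 genes, few differences from WT passed the test. In P28 against WT, 38.9% of all tested genes were called at an FDR of 0.05, 19.2% higher and 19.7% lower, and of the 10 genes 1 was higher (Shmt1) and 0 were lower. Their median log2 fold change was -0.17, against -0.02 over all tested genes. In P4M against WT, 45.9% of all tested genes were called, 22.3% higher and 23.6% lower, and of the 10 genes 2 were higher (Shmt1 and Phgdh) and 0 were lower. Here all 10 fold changes were positive, with a median of 0.67 on the log2 scale against -0.06 over all tested genes. Both shares of the 10 genes lay at or below the background of their comparison. At an unadjusted p under 0.05, edgeR gave 1 of the 10 in P28 and 4 of the 10 in P4M against WT. The share of all genes at that looser threshold was not counted. It is no lower than the 38.9% and 45.9% called after adjustment.

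In P4M against P28 the fold changes of the 10 genes were all positive (Shmt1 turned to -0.04 on the log2(TPM + 1) scale with limma), with a median of 0.70 on the log2 scale against -0.01 over all tested genes, and edgeR called 0 of them in the fit over all 14 clones. That fit called 7.22% of all genes, 3.34% higher and 3.88% lower. An unadjusted p under 0.05 was reached by 4 of the 10 genes. The share of all genes at that threshold was not counted, so no background stands beside this count. The 7.22% called after adjustment rests on a stricter threshold and is not that background. DESeq2 called 1 of the 10 genes higher, Chac1, beside 6.23% of genes called higher. When edgeR was fitted to the P4M and P28 clones alone, 7 of the 10 were called higher (Atf4, Psph, Shmt2, Mthfd2, Mthfd1l, Asns and Chac1), with adjusted p from 0.00593 for Mthfd1l to 0.0461 for Atf4, beside 8.75% of all genes in that fit. For 6 of the 10 (Psph, Shmt2, Mthfd2, Mthfd1l, Asns and Chac1), every P4M clone lay above every P28 clone, as was so for 9.07% of all tested genes. The WT clones, whose spread enters the fit over all 14 clones, ranged more widely than the cKO clones for most of these genes. The comparisons with WT share the WT clones, and those of P4M with WT and with P28 share the P4M clones, so their values are not independent of each other. The 10 genes also moved together from clone to clone, as given below, so their 10 signs are not separate observations.

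**Figure D1:**
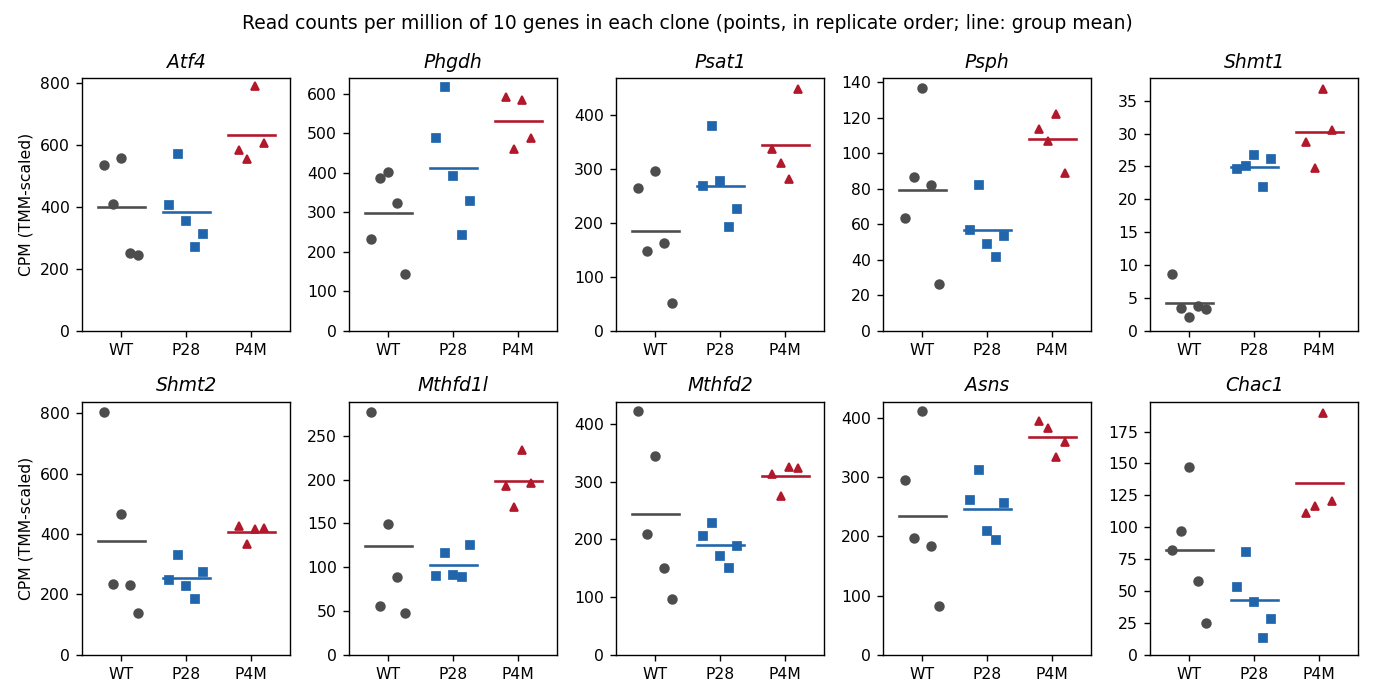
Level of each of the 10 genes in CPM (vertical axes, from 0) in 5 WT, 5 P28 and 4 P4M clones (points, in replicate order), with the group mean as a line. Shmt1 is the gene whose WT clones, at 2.10 to 8.73 CPM, all lie far below the cKO clones, at 21.9 to 36.7 CPM, whereas for Shmt2, Mthfd2 and Mthfd1l the WT points spread above and below the cKO points.

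Atf4 (chr15:80255184-80257541, plus strand, mm10) was the gene with the highest level per length of the 10 in every group. It lay at 536, 409, 559, 250.4 and 244 CPM in the 5 WT clones, at 407, 570.1, 354, 272 and 312 CPM in the P28 clones and at 585, 553, 789 and 605 CPM in the P4M clones. The WT and P28 ranges covered each other almost fully, and 3 of the 4 P4M clones lay above every clone of the other groups. The log2 fold change was -0.06 ± 0.265 SE for P28 (adjusted p = 0.875) and 0.66 ± 0.280 SE for P4M against WT (adjusted p = 0.0677), and 0.72 ± 0.280 SE for P4M against P28 (adjusted p = 0.124, all by edgeR over 17358 genes). The P4M difference from WT was called without WT replicate 1 (adjusted p = 0.0417) and without WT replicate 3 (adjusted p = 0.0358), the highest WT clones, and with limma on log2(TPM + 1) (adjusted p = 0.0337).

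The serine synthesis pathway runs from 3-phosphoglycerate through Phgdh, the dehydrogenase of the first step, Psat1, the aminotransferase, and Psph, the phosphatase that releases serine. Phgdh (chr3:98313170-98339990, minus strand) lay at 232, 386, 402, 324 and 143 CPM in WT, at 488, 616, 391, 243 and 329 CPM in P28 and at 593, 459, 584 and 487 CPM in P4M clones. Every P4M clone was above every WT clone, whereas the P28 clones overlapped with both groups. Phgdh rose in P4M against WT by 0.83 ± 0.302 SE on the log2 scale (1.78-fold, adjusted p = 0.0366, edgeR). Leaving out WT replicate 1, 4 or 5 or P4M replicate 1, 3 or 4 took this call away, with adjusted p = 0.0725, 0.0520, 0.0591, 0.0828, 0.0751 and 0.0541 in that order. Against WT the P28 difference was 0.47 ± 0.286 SE (adjusted p = 0.207). In the annotation 23 pseudogenes of any type resembled Phgdh in sequence, some of them only in part. Their counted reads came to 8.24% of those of Phgdh over all clones, with 6.96 to 11.5% in WT, 7.17 to 8.28% in P28 and 5.85 to 9.85% in P4M clones. The count of Phgdh is uncertain by the reads that such pseudogenes share.

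Psat1 (chr19:15904678-15947337, minus strand) lay at 265, 148, 296, 163 and 51.4 CPM in WT, at 267, 379, 277, 192 and 226 CPM in P28 and at 336, 310.4, 281 and 448 CPM in P4M clones. Its lowest P4M clone was below the highest WT clone, and the difference did not pass the test (0.90 ± 0.379 SE on the log2 scale, adjusted p = 0.0681, edgeR). It was called by DESeq2 (adjusted p = 0.0497), by limma on log2(TPM + 1) (0.0267) and by edgeR without WT replicate 1 (0.0446) or WT replicate 3 (0.0308). Psph (chr5:129765558-129787449, minus strand) lay at 63.9, 86.6, 137, 82.1 and 26.6 CPM in WT, at 57.0, 82.0, 49.2, 41.9 and 53.5 CPM in P28 and at 114, 107, 122 and 88.8 CPM in P4M clones. The P28 clones were low and the P4M clones high, without overlap, and the WT clones spanned both. For Psph the log2 fold change was -0.48 ± 0.322 SE for P28 and 0.45 ± 0.339 SE for P4M against WT (adjusted p = 0.253 and 0.300), and 0.93 ± 0.339 SE for P4M against P28 (adjusted p = 0.106, edgeR). Psph shares 452 of its 4329 exon bases with Cct6a on the opposite strand. The kit does not keep the strand, so reads from that stretch cannot be told apart.

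Shmt1 and Shmt2 catalyse the same exchange of a carbon unit between serine and folate, Shmt1 in the cytosol and nucleus and Shmt2 in mitochondria. Shmt1 (chr11:60788104-60811718, minus strand) was the gene of the 10 with the largest difference. It lay at 8.73, 3.44, 2.10, 3.84 and 3.32 CPM in WT, at 24.6, 25.0, 26.7, 21.9 and 26.1 CPM in P28 and at 28.7, 24.8, 36.7 and 30.5 CPM in P4M clones. All 9 cKO clones were above all WT clones, of which replicate 1 was the highest, and the P28 and P4M ranges overlapped. Shmt1 rose 5.78-fold in P28 (log2 fold change 2.53 ± 0.307 SE, adjusted p = 8.29e-05) and 7.02-fold in P4M against WT (2.81 ± 0.320 SE, adjusted p = 4.31e-05, edgeR). The call held in all 21 alternatives tried for each comparison, with adjusted p up to 0.000685 and 0.000811. P4M and P28 clones differed by 0.28 ± 0.305 SE on the log2 scale (adjusted p = 0.603). Shmt1 shares 184 of its 3883 exon bases with Smcr8 on the opposite strand, which itself was higher in both cKO groups, by 0.87 and 1.22 on the log2 scale (adjusted p = 0.0165 and 0.00286). The summed proliferation genes given above were without overlap between WT and cKO clones too, and their part in the difference was not tested.

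Shmt2 (chr10:127517123-127522444, minus strand) lay at 805, 235, 468, 232 and 138 CPM in WT, at 246, 331, 229, 185 and 275 CPM in P28 and at 425, 367, 416 and 421 CPM in P4M clones. The WT clones ranged from below to above all cKO clones. Its log2 fold change against WT was -0.57 ± 0.374 SE for P28 and 0.12 ± 0.395 SE for P4M (adjusted p = 0.246 and 0.828, edgeR), and the sign of the P4M value turned when WT replicate 2, 4 or 5 was left out (-0.01, -0.02 and -0.10). Per length, in TPM (a read level scaled to gene length and library size), the ratio of Shmt2 to Shmt1 was 56.7 to 205 in the WT clones (median 108), 11.3 to 17.6 in the P28 clones (median 12.8) and 17.2 to 20.9 in the P4M clones (median 20.5). Shmt2 exceeded Shmt1 in every clone, and the WT ratios lay above all cKO ratios.

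**Figure D2:**
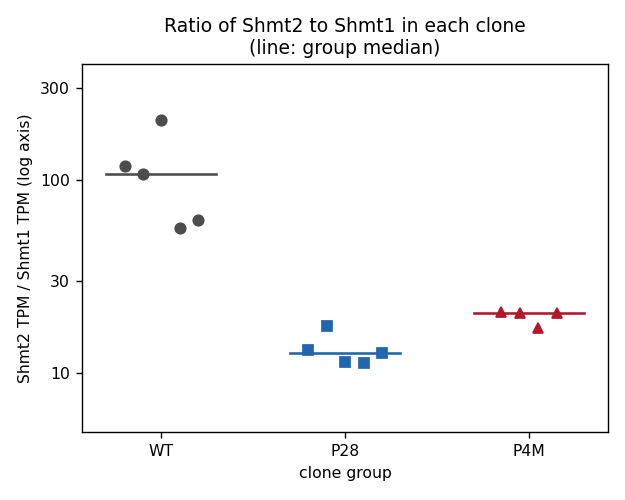
Ratio of Shmt2 TPM to Shmt1 TPM in each clone (points, log axis) of the WT, P28 and P4M groups, with the group median as a line. WT clones lie between 56.7 and 205, and cKO clones between 11.3 and 20.9.

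Mthfd2 and Mthfd1l carry the mitochondrial folate arm onward, Mthfd2 by oxidising methylene-tetrahydrofolate and Mthfd1l by releasing formate. Mthfd2 (chr6:83305691-83325908, minus strand) lay at 422, 209, 344, 150.1 and 96.6 CPM in WT, at 206, 228, 172, 151 and 189 CPM in P28 and at 312, 275, 325 and 323 CPM in P4M clones. Mthfd1l (chr10:3973118-4167081, plus strand) lay at 278, 55.7, 149, 88.3 and 47.7 CPM in WT, at 90.2, 116, 90.5, 89.3 and 126 CPM in P28 and at 193, 169, 234 and 197 CPM in P4M clones. For both genes the P4M clones lay above all P28 clones, and WT replicate 1 was higher than every other clone. In P4M against P28 the log2 fold change was 0.71 ± 0.330 SE for Mthfd2 (adjusted p = 0.196) and 0.95 ± 0.411 SE for Mthfd1l (adjusted p = 0.164, edgeR). Against WT neither passed, with -0.37 ± 0.313 SE and -0.27 ± 0.389 SE for P28 and 0.34 ± 0.331 SE and 0.68 ± 0.411 SE for P4M. Without WT replicate 1, Mthfd1l was called higher in P4M against WT (adjusted p = 0.00588) and against P28 (adjusted p = 0.0426).

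Mthfd1, the cytosolic enzyme that does in a single protein what the mitochondrial arm does with Mthfd2 and Mthfd1l, gave narrower groups. It lay at 65.0, 60.7, 58.9, 64.5 and 47.4 CPM in WT, at 58.5, 78.0, 70.0, 68.9 and 87.2 CPM in P28 and at 103, 101, 94.4 and 107 CPM in P4M clones. P4M clones were above all others, and WT and P28 clones overlapped. Mthfd1 rose by 0.77 ± 0.131 SE on the log2 scale in P4M against WT (adjusted p = 0.000477) and by 0.48 ± 0.131 SE in P4M against P28 (adjusted p = 0.0405, edgeR), the latter lost in 12 of 21 alternatives. These were 8 of the 14 fits without 1 clone (adjusted p up to 0.0988), no scaling, no filter on low counts, at least 10 counts in every clone and limma on log2(TPM + 1) (0.230). The TPM ratio of Mthfd1l to Mthfd1 was 0.795 to 3.62 in WT, 1.05 to 1.30 in P28 and 1.43 to 2.10 in P4M clones, so P4M lay above P28 within the wide range of WT. That of Mthfd2 to Mthfd2l, its mitochondrial paralogue, was 7.24 to 28.0, 5.99 to 9.61 and 9.42 to 21.7, and the 3 groups overlapped.

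Asns makes asparagine from aspartate and glutamine, and Chac1 degrades glutathione; both are widely used as readouts of Atf4. Asns (chr6:7675169-7693254, minus strand) lay at 296, 197, 411, 184 and 82.7 CPM in WT, at 261, 312, 209.8, 193 and 257 CPM in P28 and at 394, 382, 334 and 360 CPM in P4M clones. Chac1 (chr2:119351229-119354381, plus strand) lay at 82.0, 97.4, 147, 57.6 and 25.2 CPM in WT, at 53.1, 80.7, 41.0, 13.1 and 28.1 CPM in P28 and at 111, 117, 189.6 and 121 CPM in P4M clones. For both, P4M clones lay above all P28 clones, and WT replicate 3 reached into or beyond the P4M range. The log2 fold change of Asns was 0.08 ± 0.312 SE for P28 and 0.65 ± 0.330 SE for P4M against WT (adjusted p = 0.869 and 0.122), and 0.58 ± 0.330 SE for P4M against P28 (adjusted p = 0.289, edgeR). Chac1 had the largest P4M against P28 difference of the 10, 1.64 ± 0.497 SE (3.12-fold, adjusted p = 0.0602 by edgeR and 0.0133 by DESeq2). Without WT replicate 5 or P28 replicate 2 edgeR called it too (adjusted p = 0.0354 and 0.0387). Against WT, Chac1 was at -0.92 ± 0.470 SE for P28 and 0.72 ± 0.492 SE for P4M (adjusted p = 0.136 and 0.250). Psph and Chac1 were both called lower in P28 against WT when WT replicate 5 was left out (adjusted p = 0.0280 and 0.0478).

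**Figure D3:**
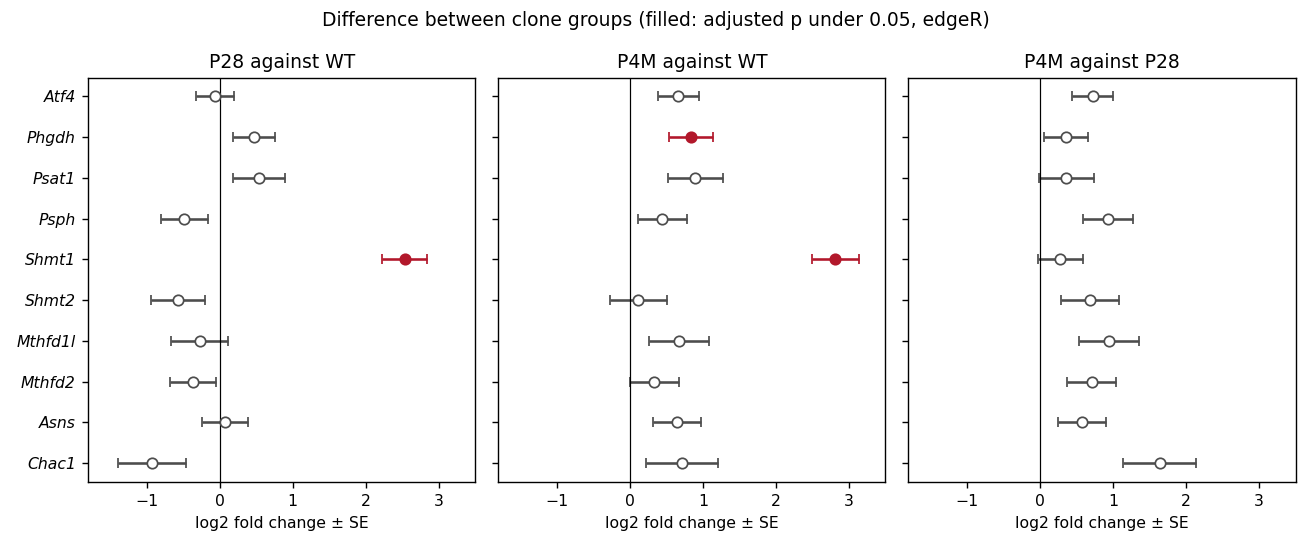
Log2 fold change (horizontal axis) with its SE for each of the 10 genes in the 3 comparisons, with filled points for an adjusted p under 0.05 in the edgeR fit over all 14 clones. Only Shmt1 (2.53 and 2.81) and Phgdh (0.83, P4M against WT) are filled, and all 10 points of P4M against P28 lie to the right of 0, from 0.28 to 1.64.

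On the TPM scale, where genes can be compared, mean levels in WT fell in the order Atf4 (364 TPM), Shmt2 (325 TPM), Phgdh (241 TPM), Asns (190 TPM), Mthfd2 (185 TPM), Psat1 (110 TPM), Chac1 (79.4 TPM), Psph (74.0 TPM), Mthfd1l (50.1 TPM) and Shmt1 (2.98 TPM). In WT each pair of neighbours overlapped over the clones except Mthfd1l and Shmt1. In P28 and P4M clones Phgdh came next after Atf4, at 406 and 460 TPM beside 415 and 608 TPM, and Shmt1 again last, at 17.7 and 17.2 TPM. In P28 the neighbours without overlap were Mthfd2 above Psph and Mthfd1l above Shmt1. In P4M they were Phgdh above Shmt2, Asns above Mthfd2, Psph above Mthfd1l and Mthfd1l above Shmt1.

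The clones of a group differed together across these genes. WT replicate 5 was the lowest WT clone for 9 of the 10 genes and WT replicate 3 or 1 the highest for 6 and 4 of them. P28 replicate 4 was the lowest P28 clone for all 10, and P28 replicate 2 the highest for 8. In P4M, replicate 2 was lowest for 6 and replicate 3 highest for 6. Shmt1 was the exception in WT, with its lowest level in replicate 3. The highest WT clone exceeded the lowest by 5.82 times for Shmt2 and 5.86 times for Chac1, whereas for P4M clones these ratios were 1.16 and 1.70. The SD of log2 CPM was largest in WT for 9 of the 10 genes, as for 66.1% of all tested genes, and fell from WT through P28 to P4M for 8 of the 10, as for 36.6% of all tested genes. The median SD of the 10 genes was 0.87 in WT, 0.34 in P28 and 0.20 in P4M, against 0.51, 0.33 and 0.31 over all tested genes. Chac1 was the gene with the largest SD in P28 (0.99).

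**Figure D4:**
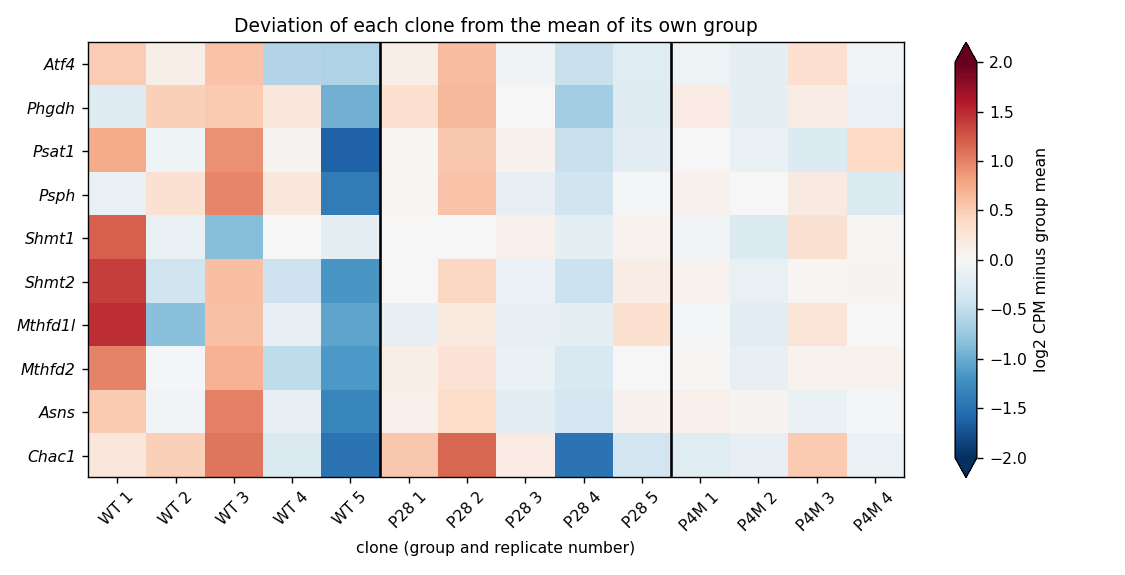
Deviation of each clone (columns) from the mean of its own group in log2 CPM (colour) for the 10 genes (rows). WT columns carry the strongest colours, with replicate 5 negative for every gene, replicate 3 positive for every gene but Shmt1, and P28 replicate 4 negative for every gene, whereas the P4M columns are pale.

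The genes whose pattern over the 14 clones was most like that of Atf4 were found by Euclidean distance between standardised log2 CPM profiles, over 17357 other genes. The nearest were Ciart (distance 1.16), Hspa9 (1.20), Epg5 (1.40), Trib3 (1.45) and Yaf2 (1.46). Among the other 9 genes Mthfd2 came first at rank 17, followed by Chac1 at 27, Asns at 53, Shmt2 at 79, Psph at 121, Mthfd1l at 127, Psat1 at 214 and Phgdh at 236. Shmt1 stood apart at rank 3130. These ranks are a description over 14 clones of 3 groups, and clones of 1 genotype share the number at the start of their library names.

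Of 22 tested genes of the integrated stress response, 4 were higher and 6 lower in P28 against WT, beside 19.2% and 19.7% of all genes, and 6 were higher and 5 lower in P4M against WT, beside 22.3% and 23.6%. These counts lay near those shares. In P4M against P28, 7 were higher and 0 lower, beside 3.34% and 3.88% of all genes, and the median log2 fold change was 0.66. The 7 were Atf3, Ppp1r15a, Ddit3, Trib3, Cebpb, Eif2s1 and Ppp1r15b. This count was 3 to 8 over the fits without 1 clone and 4 to 9 over the other alternatives, with the lowest, 3, without P28 replicate 3, P4M replicate 3 or P4M replicate 4, and 4 without P28 replicate 1 or 4, without P4M replicate 1 or 2, without a filter on low counts and with limma. Shares of all genes are not given for limma, for no filter or for the fits without 1 clone, so those counts are only a description. The fit of only these groups called 9 of the 22 higher, beside 8.75% of all genes. Ppp1r15a and Cebpb kept the call in P4M against P28 in all 21 alternatives, whereas it was lost in 2 of them for Eif2s1 and in 9 for Ppp1r15b. Against WT, Ppp1r15a was lower in P28 (-1.15 ± 0.315 SE, adjusted p = 0.0114) and not called in P4M (0.44 ± 0.329 SE, adjusted p = 0.290, edgeR). Cebpb was not called in P28 (0.03 ± 0.221 SE, adjusted p = 0.936) and was higher in P4M (1.21 ± 0.234 SE, adjusted p = 0.00122, edgeR). Without P28 replicate 2, and with only the groups compared, 2 rather than 4 were called higher in P28 against WT. Of the kinases, Eif2ak3, the sensor of unfolded protein, was lower in both cKO groups (-0.89 ± 0.159 SE and -0.99 ± 0.171 SE on the log2 scale, adjusted p = 0.000948 and 0.000571, edgeR), and kept both calls in all 21 alternatives. Eif2ak4, the sensor of amino acid shortage, was higher in P28 (0.56 ± 0.193 SE, adjusted p = 0.0335), a call lost in 9 of the 21, 8 of them fits without 1 clone, at adjusted p up to 0.0975. Eif2ak2, the sensor of double-stranded RNA, was lower in P4M against WT (-0.84 ± 0.323 SE, adjusted p = 0.0472), a call lost in 17 of the 21, 13 of them fits without 1 clone, and its P4M clones lay below all P28 clones without a call (-0.93 ± 0.324 SE, adjusted p = 0.0926). Eif2ak1, the sensor of haem, was called in none of the 3 comparisons. Ppp1r15a, Cebpb and the kinases were named after their values were seen.

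Ddit3, which encodes the pro-apoptotic factor CHOP, lay at 259, 279, 515, 577 and 176 CPM in WT, at 116, 115, 75.4, 45.4 and 67.5 CPM in P28 and at 212, 182, 356 and 233 CPM in P4M clones. P28 clones were below all others, and WT and P4M clones overlapped. Ddit3 fell by 2.11 on the log2 scale in P28 against WT (SE 0.360, adjusted p = 0.000722), was at -0.56 ± 0.370 SE in P4M against WT (adjusted p = 0.236), and rose by 1.55 ± 0.368 SE in P4M against P28 (adjusted p = 0.0264, edgeR), the last lost in 3 of the 14 fits without 1 clone. Trib3, a pseudokinase induced by Atf4 and CHOP, lay at 146, 98.9, 134, 78.3 and 29.0 CPM in WT, at 116, 169, 81.8, 42.0 and 94.9 CPM in P28 and at 253, 252, 332 and 290.3 CPM in P4M clones. All P4M clones were above all others, and Trib3 rose by 1.54 ± 0.417 SE against WT (adjusted p = 0.00917) and by 1.48 ± 0.417 SE against P28 (adjusted p = 0.0479, lost in 14 of 21 alternatives, 11 of them fits without 1 clone, up to 0.106, edgeR).

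Atf3, a stress-induced transcription factor, lay at 12.3, 17.4, 69.9, 12.8 and 12.8 CPM in WT, at 10.1, 28.9, 11.3, 9.21 and 12.7 CPM in P28 and at 40.7, 50.4, 130.0 and 58.3 CPM in P4M clones. P4M lay above all P28 clones, and WT replicate 3 was the WT clone within the P4M range. Atf3 rose by 2.27 ± 0.583 SE on the log2 scale in P4M against P28 (adjusted p = 0.0339, lost in 9 of 21 alternatives, 8 of them fits without 1 clone) and by 1.48 ± 0.573 SE against WT (adjusted p = 0.0489, lost in 13 alternatives, 11 of them fits without 1 clone, up to 0.185 without P4M replicate 3, edgeR). Atf5, a close relative of Atf4, fell by 0.90 in P28 and fell by 1.35 in P4M against WT (SE 0.305 and 0.332, adjusted p = 0.0321 and 0.00534). Its P28 call was lost in 7 of 21 alternatives, with adjusted p up to 0.0681, among them the fits without WT replicate 2, WT replicate 4 or P28 replicate 5, and the P4M call held in all 21. Ddit4, an inhibitor of mTORC1 and also a p53 target, fell by 3.62 in P28 and fell by 3.02 in P4M, and the stress-induced chromatin protein Nupr1 fell by 3.22 and fell by 2.47 in the same order (adjusted p from 0.000110 to 0.000806). Ppp1r15b, a subunit that directs a phosphatase to eIF2alpha, rose by 0.92 in P28 and by 1.40 in P4M against WT (adjusted p = 0.000119 and 1.27e-05, edgeR). Eif2s1, which encodes eIF2alpha itself, rose by 0.74 and 1.38 in the same order (adjusted p = 0.000707 and 1.60e-05, edgeR). Eif4ebp1, an inhibitor of cap-dependent translation, rose by 0.93 and 1.47 (adjusted p = 0.0203 and 0.00171, edgeR).

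**Figure D5:**
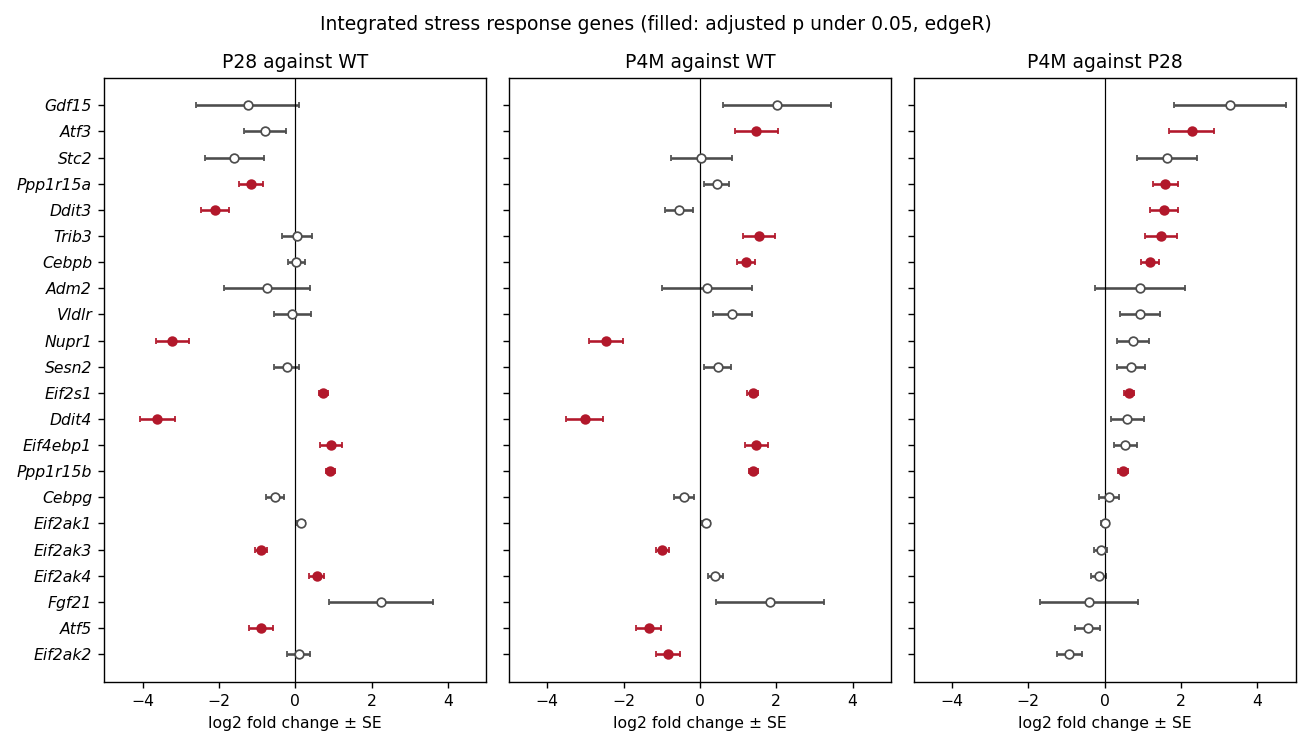
Log2 fold change (horizontal axis) with its SE for 22 integrated stress response genes in the 3 comparisons, ordered by P4M against P28, with filled points for an adjusted p under 0.05 in edgeR. Ddit4 (-3.62 and -3.02) and Nupr1 (-3.22 and -2.47) lie far to the left against WT, and the 7 filled points of P4M against P28 all lie to the right of 0.

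In the wider folate cycle, 18 of 19 listed genes were tested, of which 4 were higher and 1 lower in P28 against WT (19.2% and 19.7% of all genes), 7 higher and 1 lower in P4M against WT (22.3% and 23.6% of all genes), and 1 higher (Mthfd1) and 0 lower in P4M against P28 (3.34% and 3.88% of all genes). The number higher in P28 lay near the share of all genes. The median log2 fold change was 0.23, 0.43 and 0.15. The number higher was 10 in P28 against WT with limma on log2(TPM + 1), and 4 in P4M against WT without P4M replicate 1 or 2, and the number lower was 0 to 2 against WT. No share of all genes is given for those fits, so these counts are only a description. With limma the median log2 fold change over all genes in P28 against WT was 0.20, against -0.02 in the main fit. Tyms, the thymidylate synthase, rose by 1.41 ± 0.278 SE in P28 and by 1.31 ± 0.290 SE in P4M against WT on the log2 scale (adjusted p = 0.00168 and 0.00280, edgeR). It is also known as an S phase gene, and the proliferation genes Top2a (3.83 and 4.18) and Mki67 (3.62 and 3.65), named from a list of 4, were higher too, as were all 4 in both comparisons with WT. The part of proliferation in the rise of Tyms was not tested.

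Of 12 tested genes of glycine cleavage, the methionine cycle and transsulfuration, 4 were higher and 2 lower in P28 (19.2% and 19.7% of all genes), and 5 higher and 3 lower in P4M against WT (22.3% and 23.6% of all genes). The numbers lower lay near the shares of all genes. Ahcy, which hydrolyses S-adenosylhomocysteine, rose by 1.70 ± 0.211 SE and 2.17 ± 0.222 SE on the log2 scale (adjusted p = 9.49e-05 and 2.14e-05), and Amt, a subunit of the glycine cleavage system, fell by 1.08 and fell by 1.81 (adjusted p = 0.00425 and 0.000248, edgeR). Cbs, the first enzyme of transsulfuration, had at most 2 counts in any WT library and 10 to 142 counts in the cKO libraries, at 0.256 to 3.39 CPM, and was called higher in both comparisons. The P4M call was lost with limma on log2(TPM + 1) (0.60 on that scale, adjusted p = 0.0636). With limma 7 of the 12 were called higher in P28, the number lower was 1 in P28 without WT replicate 4 or P28 replicate 1, 3 or 5, and with at least 10 counts required in every clone 1 was lower in each comparison with WT. These counts stand without a share of all genes and are only a description. In P4M against P28, 1 of the 12 was higher, beside 3.34% of all genes. It was Dld, a subunit shared by several dehydrogenase complexes (0.76 ± 0.175 SE, adjusted p = 0.0234, edgeR), a gene named after its values were seen. The call was lost with limma and without P28 replicate 1, P4M replicate 1, P4M replicate 2 or P4M replicate 4.

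Of 16 genes of amino acid enzymes and transporters that Atf4 is known to control (Cth is also in the preceding list), 1 was higher and 2 lower in P28 (19.2% and 19.7% of all genes), and 3 higher and 0 lower in P4M against WT (22.3% and 23.6% of all genes), so none of these counts lay above the share of all genes. The number higher in P4M was 8 without WT replicate 3 and 6 with limma, and in P28 it lay between 0 and 5 over the alternatives (4 without WT replicate 3, 3 without WT replicate 1). The number lower in P28 was 1 to 3 over the fits without 1 clone and 0 with limma. For limma and the fits without 1 clone no share of all genes is given, so their counts are only a description. Slc7a11, the cystine importer, rose by 1.84 ± 0.451 SE on the log2 scale in P4M against WT and Slc7a1, a carrier of cationic amino acids, by 1.67 ± 0.369 SE (adjusted p = 0.00519 and 0.00282, edgeR). Slc7a1 was also the 1 gene of the list called higher in P28 against WT (0.98 ± 0.349 SE, adjusted p = 0.0403, edgeR), where Slc7a11 was not called (1.11 ± 0.427 SE, adjusted p = 0.0541). Got1, the cytosolic aspartate aminotransferase, was the 1 gene called in P4M against P28 (1.25 ± 0.253 SE, adjusted p = 0.0135), a call that held in all 21 alternatives, and was lower in P28 against WT (-0.85 ± 0.241 SE, adjusted p = 0.0136, and 0.127 with limma). The number called higher in P4M against P28 was 1 in the main fit, beside 3.34% of all genes, and 4 with only these groups in the fit, beside 8.75%. It was 2 with DESeq2, beside 6.23%, and 2 without WT replicate 1, WT replicate 5 or P28 replicate 2. Got1 was named after its values were seen.

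The cytosolic aminoacyl-tRNA synthetases, several of which are known Atf4 targets, were called higher against WT and not lower. Of 20 tested, 7 were higher and 0 lower in P28 and 16 higher and 0 lower in P4M against WT, with median log2 fold changes of 0.23 and 0.70, beside the 19.2% and 22.3% of all genes called higher. The count in P4M against WT was 14 to 17 over the fits without 1 clone and 14 to 16 over the other alternatives, while in P28 against WT 11 were called higher with limma and 1 was called lower without WT replicate 5. Counts from limma and from fits without 1 clone have no share of all genes beside them and are only a description. For 14 of the 20 every P4M clone lay above every WT clone, against 17.8% of all tested genes, and for 3 of the 20 every P28 clone did, against 13.0%. The same shares for Atf4 and the other 9 genes described here were 2 of 10 and 1 of 10. Kars, the lysyl-tRNA synthetase, rose by 1.23 ± 0.138 SE and 1.48 ± 0.145 SE (adjusted p = 5.35e-05 and 1.67e-05), Yars, for tyrosine, by 1.29 ± 0.204 SE in P4M (adjusted p = 0.000332) and Tars, for threonine, by 0.94 ± 0.228 SE in P28 against WT (adjusted p = 0.00576, edgeR). In P4M against P28 all 20 fold changes were positive and 1 gene was called, beside 3.34% of all genes called higher. It was Wars, for tryptophan (1.39 ± 0.339 SE, adjusted p = 0.0291, edgeR, lost in 6 of the 14 fits without 1 clone), a gene named after its values were seen. The fit of these groups alone called 7, beside 8.75% of all genes, and DESeq2 called 5, beside 6.23%. Leaving out WT replicate 3 or 1 or P28 replicate 2 or 5 gave 5, 4, 3 and 2.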

How the data were processed

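The 14 clone libraries were made with a SMART-Seq v4 kit. According to the methods and the submitters' processing notes, the authors checked single-end reads with FastQC, used TopHat with Bowtie2 for alignment to mm10, obtained counts of unambiguous reads from HTSeq, and ran DESeq2 (versions not given in the sources used here). The count table deposited by the authors holds raw counts. The deposited expected counts equal them for all 30503 genes, and the deposited TPM values were normalized by the authors for length and depth. The FPKM, rlog and depth-normalized tables were not used.

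Counts were tested in R 4.3.3 with edgeR 4.0.16 (filterByExpr, TMM, robust quasi-likelihood fit of the 3 groups over all 14 clones), with Benjamini-Hochberg adjustment over 17358 genes and an FDR of 0.05. CPM are TMM-scaled. Steps were tested on simulated data. No clone pair correlated above 0.980 in log2 CPM (prior count 2), and all clones were used as separate replicates. Labels give no replicate numbers, so numbers are in accession order. Reads carry no molecular identifiers, so they are not independent molecules.

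The 10 genes and the lists (folate cycle, glycine, methionine and transsulfuration, integrated stress response, amino acid enzymes and transporters, tRNA synthetases, proliferation and cell type markers) were chosen with earlier results of these data known. Beyond the 10 genes, those named were the 2 largest positive and 2 largest negative changes of each list that were called without overlap of the groups, against WT, and Ddit3, Trib3, Atf3, Atf5 and Mthfd1. Ppp1r15a, Cebpb, Dld, Got1, Wars and the eIF2alpha kinases fall outside this rule and were named after their values were seen. A gene that this rule takes is not reported here. Pseudogenes and exon overlaps came from GENCODE M21. Alternatives were DESeq2 1.42.0, RLE or no scaling, no filter, at least 10 counts in every clone, only the groups compared, limma 3.58.1 on log2(TPM + 1), a minimum log2 fold change of 1 in size, and leaving out each clone. No batch term could be fitted.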

Additional observations from a re-analysis of the deposited data

Results flagged for a closer look

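In 16 genes examined by clone (48 gene and group pairs, of which chance flags about 1 in 20), 5 had a clone far from the rest of its group, given as its gap to the nearest clone over the range of the group. They were Shmt1 in WT replicate 1 (0.738), Shmt2 in P4M replicate 2 (0.846, the lowest), Chac1 in P4M replicate 3 (0.881), and Atf3 in WT replicate 3 (0.912) and in P28 replicate 2 (0.821). Leaving out P4M replicate 3 moved the adjusted p of Atf3 in P4M against WT from 0.0489 to 0.185, and the calls of Shmt1 held without WT replicate 1.

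Among the named genes, 11 differed between the cKO groups by the test of P4M against P28 itself, which is the difference between their effects against the shared WT clones and which called 7.22% of all tested genes. Ppp1r15a, Cebpb, Dld, Got1 and Wars were named because they passed this test, so the number that passed is a description. The log2 fold changes were 2.27 for Atf3, 1.59 for Ppp1r15a, 1.55 for Ddit3, 1.48 for Trib3, 1.39 for Wars, 1.25 for Got1, 1.18 for Cebpb, 0.76 for Dld, 0.64 for Eif2s1, 0.48 for Mthfd1 and 0.48 for Ppp1r15b. Of these, Ppp1r15a, Cebpb and Got1 kept their call in all alternatives tried.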

How the results depend on the processing

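Over 21 alternatives for each of the 10 genes, direction and call held in 194 of 210 cases for P28 against WT, 190 for P4M against WT and 197 for P4M against P28. Values of P28 against WT that turned sign were those of Atf4 without scaling (0.024) and, with limma on log2(TPM + 1), of Atf4 (0.26), Psph (0.10), Mthfd2 (0.090) and Mthfd1l (0.29). On that scale the median of all genes moved from -0.02 to 0.20 in this comparison and from -0.01 to -0.14 in P4M against P28, where Shmt1 turned to -0.040. Over the 14 fits without 1 clone, values that changed sign ranged in P28 against WT from -0.27 to 0.087 for Atf4, from -0.48 to 0.24 for Mthfd1l, from -0.14 to 0.37 for Asns, from -0.23 to 0.22 for Trib3 and from -1.23 to 0.058 for Atf3, and in P4M against WT from -0.10 to 0.59 for Shmt2. The cause was not tested.

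The number of the 10 genes called higher was 3 with limma in P28 against WT, and 6 with limma and 1 with a log2 fold change of 1 or more required in P4M against WT. In P4M against P28 it was 1 with DESeq2, beside 6.23% of all genes, and 7 with only the groups compared, beside 8.75%. For limma and the fits without 1 clone, the share of all genes called higher is not given here, so those counts are only a description. The same holds for the counts of the other lists in those fits. Without 1 clone the number of the 10 genes called higher was 1 to 5 in P4M against WT (5 without WT replicate 3, 4 without WT replicate 1, and 1 without WT replicate 4 or 5 or P4M replicate 1, 3 or 4) and 0 to 2 in P4M against P28 (2 without WT replicate 5), and the number called lower in P28 against WT was 0 to 2 (2 without WT replicate 5). Of all genes, requiring an absolute log2 value of 1 or more left 4040 and 5149 of the 6750 and 7969 called against WT. In P4M against P28, 1254 genes were called, 2815 with DESeq2, 3051 with only these groups, and 480 to 2132 without 1 clone, lowest without P4M replicate 1 and highest without WT replicate 1. The number of clones per group limits what differences can be called, and Cbs rests on few reads in WT. Shmt1 was the lowest of the 10 genes in WT, at a mean of 4.29 CPM, where 3 counts amount to 0.121 CPM or less.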
